A study of Mus musculus with 24 samples.

Results

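The genes described here are 31 genes of cholesterol metabolism, chosen by name for their known roles, with earlier results of these data known. The list holds 18 enzymes of cholesterol synthesis, 5 regulators of that synthesis, and 8 genes of sterol transport, storage and efflux. These 31 are among the 45319 rows that name a gene or transcript in the count table. Each of the 31 was found there and passed the filter on low counts. RNA came from Lys-GFP-ER-HoxA9 cells, a mouse myeloid progenitor line on the C57Bl/6 background. It carries a HoxA9 protein fused to the estrogen receptor, which estradiol keeps active, and a GFP reporter named for lysozyme. The cells were grown with stem cell factor and 0.5 uM estradiol, and 20 libraries were made at 0, 4, 8, 12, 24, 36, 48, 72, 96 and 120 h after estradiol was taken away. Each of these 10 times has 2 libraries, called A and B here after the letters of their columns. Another 4 libraries, 1 each for 12, 36, 72 and 120 h, hold RNA of these cells under R07, for which only the code is known. Whether R07 was given with or without estradiol is not stated. The labels also do not say that the libraries of a time were separate cultures or how many clones the line holds, so p-values measure only the spread between these libraries, which may be technical.

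Between 36.7 and 49.6 M reads were counted in genes in each library. Progenitor markers (Kit, Cd34, Flt3) summed to 3853 and 3826 CPM (counts scaled to the size of the library) at 0 h and to 86.3 and 87.7 CPM at 120 h, while the sum of 8 neutrophil granule genes went from 4002 and 3742 to 24080 and 18410 CPM, with 7 of the 8 higher. In R07 the progenitor sum stayed between 4132 and 4880 CPM. T cell markers were at 0 CPM at 0 h. Because these are bulk libraries, fewer cells of a type and less RNA per cell cannot be told apart.

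Cells make cholesterol from acetyl-CoA by way of mevalonate, farnesyl diphosphate, squalene and lanosterol. The genes of the route are driven by SREBP-2, a membrane-bound transcription factor encoded by Srebf2. SREBP proteins leave the endoplasmic reticulum with the escort Scap when sterol is low, and are held back there by Insig1 and Insig2 when sterol is high. Oxysterols, which form when cholesterol is plentiful, activate the nuclear receptors LXR, and these turn on the exporters Abca1 and Abcg1, the ubiquitin ligase Mylip, the phospholipid-remodelling enzyme Lpcat3 and Srebf1. Cholesterol that arrives in lysosomes is handed out by Npc2 and Npc1, and Soat1 turns surplus cholesterol into esters for storage. Macrophages are known for high efflux and ester storage, and dividing cells for a high need of new membrane sterol.

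RefSeq promoter windows (250 bases before to 50 after a start in RefSeq, GRCm38.p6) were at hand for 25 of the 31 genes, and they show what many of these genes share. Such a start can differ from the gene start in GENCODE. That of Dhcr7 lies inside the gene, which begins at 143823145 (chromosome 7, plus strand). In well-known promoters of the route a sterol regulatory element works beside a binding site of the factor NF-Y, whose core is CCAAT. On either strand, CCAAT was in 22 of the 25 windows (88%) and in 14 of 15 windows of synthesis enzymes (93.3%), against 41.1% of the windows of 27025 gene symbols. The sterol element core TCACNCCAC, on either strand, was in 1 of 25 windows (4%), that of Hmgcs1, as TCACCCCAC at positions -137 to -129, against 1.44% of all windows. With the shorter core CACNCCAC, which lies within the longer one and was chosen after few matches to it were seen, 3 of 25 windows (12%) and 7.12% of all windows held a match. A match to such short letters is not a measured binding site. The stretches below are shown because they carry CCAAT boxes before the start of genes whose courses the results turn on, 5′ to 3′ on the strand of the gene. CCAAT and its reverse complement ATTGG are in capitals. They lie at chr8:64733658-64733750 (minus strand, -172 to -80 from the start) for Msmo1, chr8:122443433-122443494 (minus, -72 to -11) for Mvd, chr13:8885549-8885605 (plus, -57 to -1) for Idi1, chr5:4104710-4104738 (minus, -41 to -13) for Cyp51, chr7:143830117-143830181 (plus, -97 to -33) for Dhcr7 and chr5:28071184-28071212 (plus, -228 to -200) for Insig1.
Msmo1: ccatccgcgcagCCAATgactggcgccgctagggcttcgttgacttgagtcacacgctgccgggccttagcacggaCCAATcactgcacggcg
Mvd: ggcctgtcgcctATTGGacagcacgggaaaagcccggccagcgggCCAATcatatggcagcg
Idi1: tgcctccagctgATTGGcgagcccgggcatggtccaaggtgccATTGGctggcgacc
Cyp51: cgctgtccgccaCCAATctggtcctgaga
Dhcr7: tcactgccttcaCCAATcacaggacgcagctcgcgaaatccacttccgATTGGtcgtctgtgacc
Insig1: cgccctcctcccATTGGctccggcggcct
Npc2, whose course was another, is shown beside them: its stretch at chr12:84773113-84773199 (minus strand, -87 to -1) also holds CCAAT on both strands.
Npc2: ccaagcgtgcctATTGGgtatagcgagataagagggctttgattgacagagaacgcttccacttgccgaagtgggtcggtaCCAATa

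Over the withdrawal course most synthesis enzymes dipped in the first hours, climbed to a high point around 48 h and came down again by 120 h, while most genes of efflux, lysosomal export and ester storage climbed to the end. Of the 18 enzymes, 10 had their highest mean at 48 h, 4 at 72 h and 4 at 96 h. Among all 31 genes 14 were highest at 48 h, against 3.94% of 15371 genes measured. Of the 8 transport genes 6 were highest at 120 h, where 26.9% of all genes had their highest mean. The lowest mean was at 4 h for 6 of the 18 enzymes, at 8 h for 4 and at 120 h for 5, against 9.21, 6.23 and 26.2% of all genes, so the share at 120 h is near that of all genes. Changes below are log2 values ± SE from edgeR quasi-likelihood fits over all genes, with p-values adjusted by Benjamini-Hochberg over all genes tested. A gene is said to rise or fall, or is called, where its adjusted p is under 0.05.

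**Figure D1:**
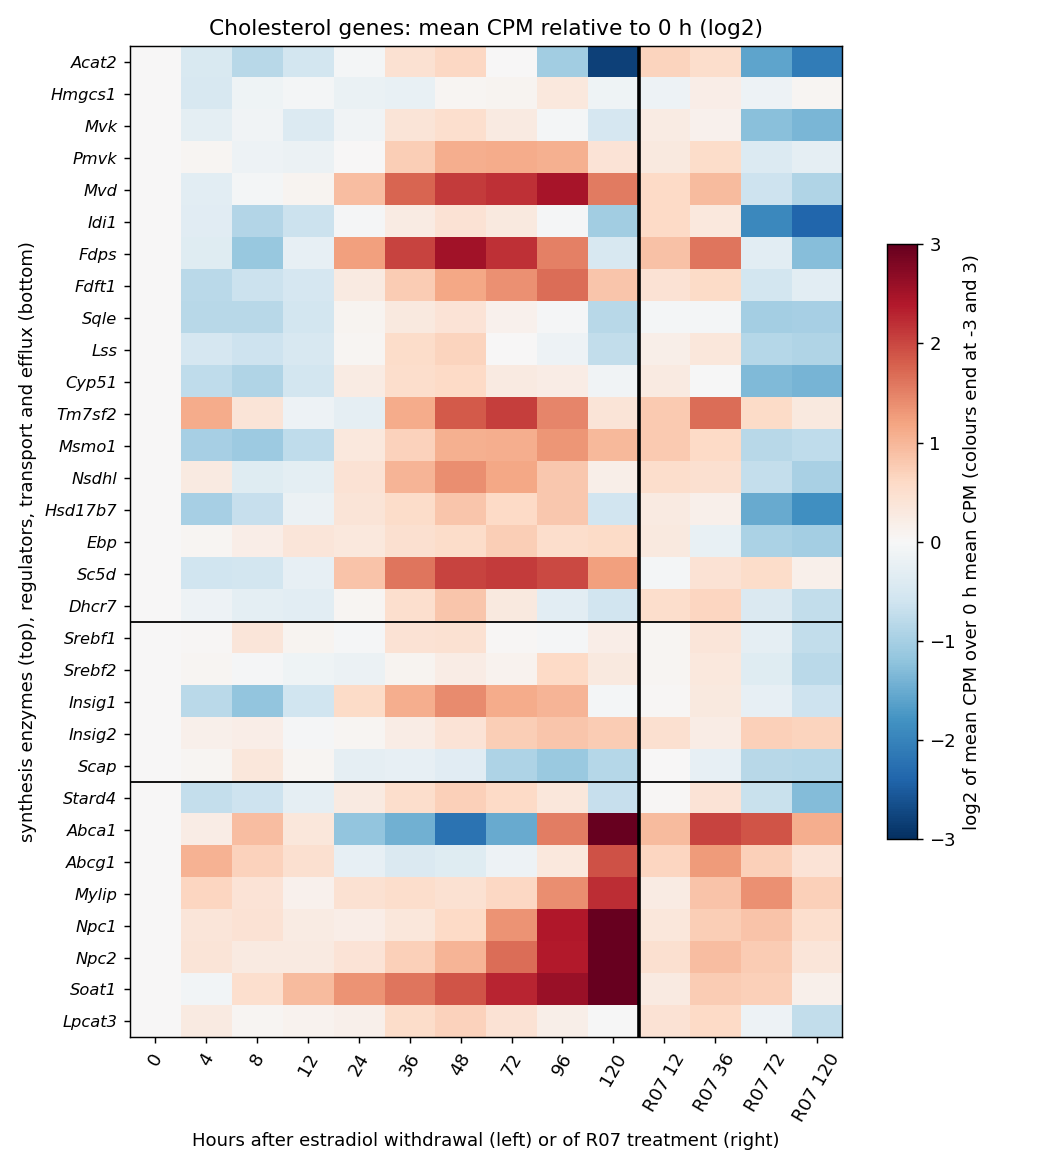
Log2 of mean CPM relative to the 0 h mean for the 31 genes (rows, grouped as synthesis enzymes, regulators, and transport and efflux) at each hour of withdrawal (mean of 2 libraries) and of R07 treatment (1 library). Most synthesis rows are blue at 4 to 12 h and red around 48 h, and 6 of the 8 transport rows are darkest red at 120 h. In the R07 columns most synthesis rows are blue at 72 and 120 h, and colours end at -3 and 3.

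The first comparison, 4 h against 0 h, asks how these genes stood soon after estradiol was gone. Of the 18 enzymes 9 fell and 1 rose, with a median change of -0.42, against 4.53% of 14615 genes tested called lower and 7.22% called higher. Msmo1, the methyl sterol oxidase (ENSMUSG00000031604.7, mm10 chromosome 8, 64718139 to 64733792, minus strand), had 67.9 and 80.8 CPM at 0 h and 35.2 and 39.5 CPM at 4 h. Both 4 h libraries lay below both 0 h libraries, a change of -0.996 ± 0.10 (adjusted p = 7.52e-07). Sqle, squalene epoxidase, went from 120.0 and 123 CPM to 67.0 and 68.6 CPM, a change of -0.84 ± 0.09 (adjusted p = 9.82e-07). Hsd17b7, a sterol ketone reductase, changed by -1.004 ± 0.11 from 24.0 and 25.1 to 11.8 and 12.7 CPM.

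Early falls were thus found from the start of the route to its sterol end. Acat2, the thiolase that joins acetyl-CoA units, changed by -0.46, Hmgcs1, which makes HMG-CoA, by -0.48, and Fdft1, squalene synthase, by -0.81 at 4 h. Lss, which closes the rings of lanosterol, changed by -0.50, Cyp51, which removes a methyl group from lanosterol, by -0.76, and the desaturase Sc5d by -0.60. The single enzyme that rose was Tm7sf2, a sterol reductase, from 2.12 and 2.35 to 5.54 and 4.11 CPM (1.10 ± 0.24). It overlaps Vps51 on its own strand, so its low counts are uncertain, and its call was lost without 4 h library A (adjusted p = 0.0694). The other enzymes (Mvk, Pmvk, Mvd, Idi1, Fdps, Nsdhl, Ebp and Dhcr7) were not called, with changes from -0.37 to 0.27. Acat2 lost its call without 0 h library B or 4 h library A, and Lss without 0 h library A or 4 h library B. The other 7 falls held in each of 20 omissions of a library. Most omissions were of libraries of other times, which enter such a comparison only through the shared fit.

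At 8 h 11 of the 18 enzymes were lower than at 0 h and none was higher, with a median of -0.60, while 8.99% of all genes were called lower and 12.9% higher. Idi1, the isomerase that makes the reactive isoprene unit (ENSMUSG00000058258.11, chromosome 13, 8885501 to 8892451, plus strand), had 17.8 and 18.9 CPM at 8 h against 32.3 and 35.6 CPM at 0 h. That is a change of -0.90 ± 0.11 (adjusted p = 4.99e-06), with no overlap between the libraries of the 2 times. Acat2 stood at 26.2 and 25.9 CPM against 44.4 and 48.4 CPM (-0.84 ± 0.12). Fdps, which makes farnesyl diphosphate, was at 1.16 and 1.18 CPM against 2.58 and 2.57 CPM (-1.15 ± 0.19). Fdps has near-identical copies in the mouse genome and overlaps Gm43738 on its strand, so its low counts are uncertain throughout. Msmo1 changed by -1.10, Cyp51 by -0.92 and Sqle by -0.85. Hmgcs1, lower at 4 h, was back at 232 and 221 CPM (-0.13 ± 0.08, adjusted p = 0.29). Of the 11 falls 10 held in each omission of a library, and that of Nsdhl (-0.38) did not.

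**Figure D2:**
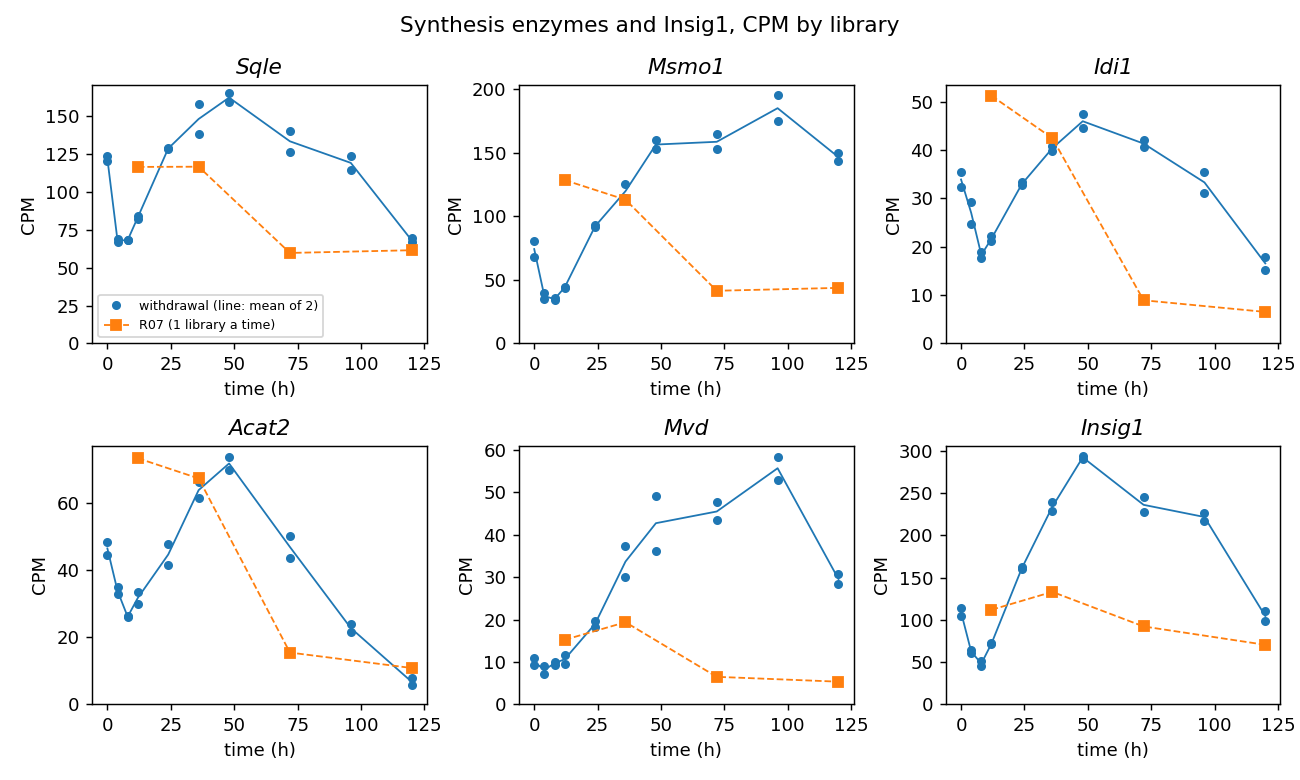
CPM in each library (vertical axis, from 0) against time in hours for 5 synthesis enzymes and Insig1: circles are the 2 withdrawal libraries of a time with a line through their means, squares the single R07 libraries. In each panel both withdrawal libraries of 48 h lie above those of 4, 8 and 12 h, and R07 levels at 72 and 120 h lie below those at 12 and 36 h.

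From 8 h to 24 h the direction turned. Between these times 13 of 18 enzymes rose and 1 fell, with a median of 0.83, against 18.3% of all genes called higher and 21.2% lower. Msmo1 went to 92.9 and 91.5 CPM (1.41 ± 0.10), Cyp51 from 76.7 and 76.3 to 174 and 167 CPM (1.16 ± 0.10) and Sc5d from 35.0 and 36.8 to 94.3 and 95.4 CPM (1.41 ± 0.08). The gene that fell was Tm7sf2 (-0.66 ± 0.25), which did not hold when 8 h library A was omitted. Set against 0 h, 8 of 18 enzymes were already higher at 24 h and none was lower, while 13.5% of all genes were called higher and 14.4% lower. The clearest of these were Fdps (1.23), Mvd (0.92), which makes isopentenyl diphosphate, and Sc5d (0.84), the 3 calls that held in every omission of a library. Over all 31 genes 15 were called at 24 h, and 9 without 0 h library A or without 24 h library B.

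The comparison of 48 h with 0 h was added after the high point had been seen. At 48 h 17 of 18 enzymes were above 0 h and none was below, with a median of 0.83, while 25.8% of all genes were called higher and 26.8% lower. Mvd (ENSMUSG00000006517.4, chromosome 8, 122433601 to 122443422, minus strand) had 10.9 and 9.17 CPM at 0 h and 49.2 and 36.2 CPM at 48 h, a change of 2.09 ± 0.16 (adjusted p = 5.40e-10). Fdps had 16.0 and 13.7 CPM at 48 h (2.52 ± 0.15) and Sc5d 214 and 216 CPM against 50.7 and 54.7 CPM at 0 h (2.03 ± 0.09). In each of these genes the 48 h libraries lay above the 0 h libraries. Other enzymes moved less: Nsdhl, which removes a carboxyl group from sterols, changed by 1.40, Fdft1 by 1.16, Dhcr7, a reductase of the last steps, by 0.83, Sqle by 0.41 and Idi1 by 0.43. Acat2 reached 69.8 and 73.6 CPM (0.62 ± 0.12). The enzyme that was not called was Hmgcs1, at 252 and 257 CPM against 244 and 247 CPM (0.05 ± 0.08, adjusted p = 0.659). Hmgcs1 kept the narrowest course of the enzymes apart from Ebp, between 177 CPM on average at 4 h and 308 CPM at 96 h. All calls of enzymes at 48 h except that of the kinase Mvk held in each omission of a library. The summed level of 6 eosinophil marker genes was also highest at that time. All 6 had a higher mean than at 0 h, where 2 of them were at 0 CPM, although 4 of the 6 had their highest mean at another time. The sum was 8.67 and 11.7 CPM at 0 h and 2431 and 1985 CPM at 48 h, most of it Prg2 and Prg3. Their part in the result was not tested.

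At 72 h 13 of 18 enzymes were above 0 h and none below, with a median of 0.65 and with 34.9% of all genes called higher and 34.7% lower. Between 24 h and 72 h 12 enzymes rose and none fell (median 0.37, against 32.2% and 30.8% of all genes). The mean of 72 h lay above that of 48 h for 8 enzymes and below it for 10, which was not tested. Levels at 72 h were 47.6 and 43.4 CPM for Mvd, 79.4 and 79.2 CPM for Fdft1, 34.7 and 36.9 CPM for Pmvk, phosphomevalonate kinase, 60.9 and 60.7 CPM for Ebp, a sterol isomerase, and 218 and 231 CPM for Sc5d. Acat2, at 43.6 and 50.1 CPM, Lss, at 45.3 and 47.8 CPM, and Sqle, at 126 and 140.0 CPM, were not called against 0 h, with changes between -0.01 and 0.12. Of the 13 calls 10 held in each omission of a library, and those of Idi1, Cyp51 and Dhcr7 did not.

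From 72 h to 120 h 16 of 18 enzymes fell and none rose, with a median of -0.82, against 32.3% of all genes called lower and 33.4% higher. Acat2 (ENSMUSG00000023832.10, chromosome 17, 12942890 to 12960747, minus strand) dropped from 43.6 and 50.1 CPM to 5.64 and 7.76 CPM, a change of -2.82 ± 0.13 (adjusted p = 2.30e-13). A closely similar mouse gene, Acat3, may share its reads, so its counts are uncertain. Fdps went from 11.0 and 12.4 to 1.83 and 1.90 CPM (-2.66 ± 0.17) and Idi1 from 40.6 and 42.1 to 15.2 and 18.0 CPM (-1.33 ± 0.11). The 120 h libraries lay below the 72 h libraries in these 3 genes. Hsd17b7 changed by -1.17, Nsdhl by -1.01 and Sqle by -0.97. Msmo1 (-0.12 ± 0.10) and Ebp (-0.16 ± 0.10) were not called. The fall held in each omission of a library for 15 of the 16, and Hmgcs1 lost its call in 2 omissions.

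Against 0 h the enzymes therefore stood on both sides at 120 h: 6 were higher and 8 lower, with a median of -0.15, among 39.6% of all genes called higher and 40.3% lower. The 6 higher were Mvd (1.54), Sc5d (1.22), Msmo1 (0.96), Fdft1 (0.80), Ebp (0.55) and Pmvk (0.38). The 8 lower were Acat2 (-2.82), Idi1 (-1.06), Sqle (-0.86), Lss (-0.76), Hsd17b7 (-0.60), Dhcr7 (-0.60), Mvk (-0.54) and Fdps (-0.49). Mvk, Pmvk and Fdps lost their calls in 1 to 3 omissions each, of a 120 h library among others for Pmvk and Fdps and of 120 h library A for Mvk. Beside these counts, the sum of 12 cell cycle genes was 5104 and 5274 CPM at 72 h and 499 and 646 CPM at 120 h, with all 12 below their 0 h mean. The sum of 8 macrophage markers was 631 and 534 CPM at 72 h and 4475 and 4371 CPM at 120 h, all 8 above their 0 h mean. The part of these shifts in the enzyme results was not tested.

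Among the regulators Insig1, itself a known target of SREBP, was low and high at the same times as most enzymes. Insig1 (ENSMUSG00000045294.11, chromosome 5, 28071363 to 28078662, plus strand) had 104 and 114 CPM at 0 h, 60.6 and 64.1 at 4 h, 45.3 and 50.9 at 8 h and 72.1 and 71.6 at 12 h. It then had 160.0 and 163 CPM at 24 h, 291 and 294 at 48 h, 227 and 245 at 72 h, 226 and 217 at 96 h and 98.5 and 110.5 at 120 h. It was thus low in every library of 4 to 12 h, above every 0 h library from 24 to 96 h, and close to the 0 h levels at 120 h. Against 0 h the change was -0.81 ± 0.09 at 4 h, -1.19 ± 0.09 at 8 h and 1.42 ± 0.09 at 48 h (adjusted p = 3.57e-11), and -0.08 ± 0.09 at 120 h (adjusted p = 0.387). Insig2, its paralog, took another course, from 15.4 and 14.3 CPM at 0 h to 20.1 and 19.1 at 48 h and 23.8 and 26.9 at 120 h, with a change of 0.75 ± 0.11 (adjusted p = 1.65e-06) at 120 h and 0.18 ± 0.11 at 8 h (adjusted p = 0.237).

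Srebf2, the gene of SREBP-2 itself, had 238 and 189 CPM at 0 h, 219.6 and 196 at 8 h, 262 and 239.7 at 48 h and 273 and 247 at 120 h. Its 0 h libraries lay apart, and it was not called against 0 h at any of the 6 times compared. The changes ran from -0.17 (24 h) to 0.27 (120 h, adjusted p = 0.0563). Its highest mean, 325 CPM (SD 2.75), was at 96 h, which is not among these 6 times. Srebf1, the partner gene with a role in fatty acid synthesis, had 118 and 90.0 CPM at 0 h and 158 and 128 at 48 h and was called there alone of the 6 times (0.46 ± 0.13, adjusted p = 0.00748), which did not hold when 0 h library B (adjusted p = 0.153) or 48 h library A (adjusted p = 0.132) was omitted. Scap had 85.7 and 65.8 CPM at 0 h, 40.8 and 38.9 at 72 h and 42.6 and 41.1 at 120 h, below both 0 h libraries at both late times. Its change was -0.94 ± 0.14 at 72 h and -0.87 ± 0.14 at 120 h (adjusted p = 6.92e-06). Of the 5 regulators 1 was called at 4 h and at 8 h (Insig1, lower, against 4.53 and 8.99% of all genes called lower). At 24 h 1 was called (Insig1, higher, against 13.5% called higher). At 48 h 3 were higher and 1 lower (against 25.8% and 26.8%), and at 72 h 2 were higher and 1 lower (against 34.9% and 34.7%). At 120 h 1 was higher and 1 lower (against 39.6% and 40.3%). The shares of regulators called at 72 h and 120 h are thus near or below those of all genes. At 48 h the calls of Insig1 and Insig2 held in each omission of a library, while without 48 h library A both Srebf1 and Scap (adjusted p = 0.0543) lost theirs. Between 8 and 24 h Insig1 rose by 1.75, while Scap (-0.59) and Srebf1 (-0.39) fell, the call of Srebf1 being lost without any 1 of the 4 libraries of these times (adjusted p from 0.0506 to 0.158).

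Most transport genes were early on higher than at 0 h, when many enzymes were lower. At 4 h 5 of the 8 transport genes rose and 1 fell (median 0.32, against 7.22% of all genes called higher and 4.53% lower), and at 8 h again 5 rose and 1 fell (median 0.41, against 12.9% and 8.99%). The gene that fell was Stard4, a cytosolic sterol carrier and known SREBP target, from 128 and 136 CPM to 78.4 and 82.4 CPM at 4 h (-0.72 ± 0.09), and it followed the enzymes later too, with 205 and 227 CPM at 48 h and 81.9 and 80.5 at 120 h. Abcg1, which moves cholesterol to high-density lipoprotein (chromosome 17, 31057675 to 31117988, plus strand), had 48.5 and 42.4 CPM at 0 h, 95.7 and 91.9 at 4 h and 76.6 and 69.5 at 8 h. It rose by 1.04 ± 0.09 at 4 h (adjusted p = 1.67e-07), with both 4 h libraries above both 0 h libraries. Mylip, an E3 ubiquitin ligase that acts on lipoprotein receptors, went from 10.9 and 10.4 to 17.3 and 15.8 CPM (0.64 ± 0.10). Abca1, which loads cholesterol onto apolipoprotein particles, was not called at 4 h (0.22 ± 0.23) and was at 28.3 and 25.5 CPM at 8 h (0.92 ± 0.22). Npc1, Npc2 and Lpcat3 rose at 4 h too (0.37, 0.38 and 0.27), and at 8 h the other genes that rose were Mylip (0.39), Npc1 (0.42) and Soat1 (0.50). The early rises of Abcg1 at both times, Mylip at 4 h and Soat1 at 8 h held in each omission of a library, and the other early rises did not. Over all 31 genes 6 were called higher at 4 h and 3 and 2 without 0 h library B and 4 h library A; at 8 h 5 were called higher and 2 without 0 h library B or 8 h library A.

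The middle of the course divided them. Abca1 (ENSMUSG00000015243.4, chromosome 4, 53030787 to 53159895, minus strand) had 14.6 and 13.7 CPM at 0 h, 6.74 and 5.66 at 24 h, 4.98 and 5.43 at 36 h, 3.15 and 2.97 at 48 h and 4.96 and 4.92 at 72 h. All 8 of these later libraries lay below the 0 h libraries, with changes of -1.19 ± 0.24 at 24 h, -2.21 ± 0.26 at 48 h (adjusted p = 4.69e-07) and -1.53 ± 0.25 at 72 h. Abcg1 was also lower at 48 h (-0.36 ± 0.09), which did not hold when 0 h library A was omitted (adjusted p = 0.0576), and its small change at 24 h (-0.25 ± 0.09) was lost in 17 of 20 omissions of a library. Soat1 (chromosome 1, 156424525 to 156474331, minus strand) took another course, from 59.1 and 60.6 CPM at 0 h to 87.2 and 83.5 at 8 h, 154 and 149 at 24 h, 213 and 229 at 48 h and 299 and 289 at 72 h. It rose against 0 h at 8 h (0.50), 24 h (1.34), 48 h (1.88) and 72 h (2.28). Of the 8 genes 4 rose and 2 fell at 24 h (median 0.23), where 13.5% of all genes were called higher and 14.4% lower. At 48 h 6 rose and 2 fell (median 0.65, against 25.8% and 26.8%), so the share that fell is near that of all genes, and at 72 h 6 rose and 1 fell (median 0.60, against 34.9% and 34.7%).

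The end of the course brought the widest changes of the list. Abca1 had 55.5 and 26.9 CPM at 96 h, where the libraries lay far apart, and 346 and 341 CPM at 120 h. From 72 h to 120 h it rose by 6.11 ± 0.27 (adjusted p = 7.83e-14) and against 0 h by 4.58 ± 0.25 (adjusted p = 4.70e-13). Its highest mean, at 120 h, was 112 times its lowest, at 48 h. Abcg1 reached 166 and 176 CPM (1.89 ± 0.09 against 0 h) and Mylip 48.4 and 50.7 CPM (2.20 ± 0.10). For these 3 genes the 120 h libraries lay above every other withdrawal library.

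The lysosomal pair rose in parallel. Npc1, the membrane exporter, had 37.3 and 31.9 CPM at 0 h, 53.9 and 51.5 at 48 h, 96.0 and 81.2 at 72 h, 185 and 180.1 at 96 h and 342 and 351 at 120 h, a change of 3.30 ± 0.10 against 0 h (adjusted p = 1.44e-16). Npc2, the soluble carrier that hands cholesterol to it, had 164 and 163 CPM at 0 h, 354 and 304 at 48 h, 538 and 501 at 72 h, 896 and 794 at 96 h and 1686 and 1653 at 120 h (3.33 ± 0.10, adjusted p = 8.11e-17). Soat1 ended at 514 and 508 CPM (3.07 ± 0.09). All 3 were above both 0 h libraries in every library from 72 h on. Lpcat3 had a difference of -0.02 at 120 h and was not called, after a rise at 48 h (0.69). At 120 h 6 of the 8 transport genes were above 0 h and 1, Stard4, below (-0.72 ± 0.09), with a median of 2.64, against 39.6% of all genes called higher and 40.3% lower. From 72 h to 120 h 6 rose and 2 fell (median 1.63, against 33.4% and 32.3%). The macrophage marker sums given above rose over the same hours, with Csf1r at 2338 CPM and Adgre1 at 1381 CPM on average at 120 h. Of that list 3 markers, C1qa and Mertk among them, were at 0 CPM at 0 h. Their part in the rise of the efflux genes was not tested.

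**Figure D3:**
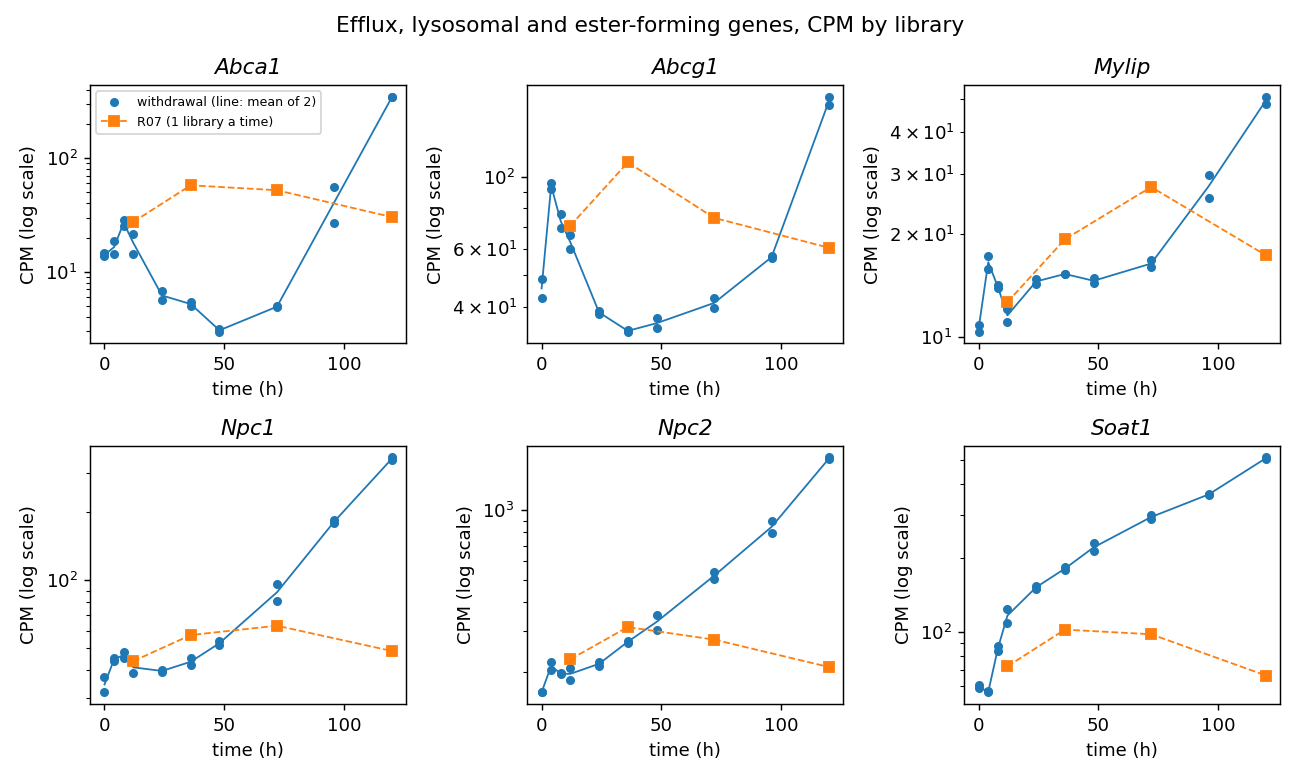
CPM in each library (log axis) against time in hours for 6 genes of efflux, lipoprotein receptor turnover, lysosomal export and ester storage, with circles and line for withdrawal and squares for R07. Abca1 falls to about 3 CPM at 48 h before it climbs to 346 and 341 CPM, Npc1, Npc2 and Soat1 climb through the later times, and R07 levels stay below the 120 h withdrawal level in every panel.

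The genes known as LXR targets (Abca1, Abcg1, Mylip, Lpcat3 and Srebf1) were described as a list of 5. Of these 3 rose at 4 h (Abcg1, Mylip and Lpcat3, the last by 0.27, a call lost in 4 omissions), 3 at 8 h (Abca1, Abcg1 and Mylip) and 3 at 120 h (again Abca1, Abcg1 and Mylip), with medians of 0.27, 0.39 and 1.89, where 7.22, 12.9 and 39.6% of all genes were called higher. At 24 h 1 rose (Mylip) and 2 fell (Abca1 and Abcg1), against 13.5% of all genes called higher and 14.4% lower. At 48 h 3 rose and 2 fell (median 0.46, against 25.8% and 26.8%). At 72 h 2 rose and 1 fell (median 0.01, against 34.9% and 34.7%), so the share that rose then is near that of all genes.

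Other lists around the pathway were fixed with earlier results of these data known. Of 12 further genes of LXR signalling, efflux and ester handling that could be tested (14 listed), 10 rose and 1 fell at 120 h against 0 h, where 39.6% of all genes were called higher and 40.3% lower. Cyp27a1, which makes an oxysterol, and Nr1h3, an LXR gene, count among the 10, but their means were under 0.1 CPM at 0 h (0.0102 and 0.0559 CPM, against 0.504 and 0.456 CPM at 120 h), and without them 8 of 10 rose. Lipa, the lysosomal lipase that frees cholesterol from esters, changed by 5.20 ± 0.15 and Plin2, a lipid droplet coat protein, by 4.43 ± 0.11. Lrp8, a lipoprotein receptor, changed by -4.12 ± 0.11. At 4 h 1 gene of that list was called, higher, where 7.22% of all genes were called higher and 4.53% lower. At 8 h 5 rose and 1 fell, against 12.9% and 8.99% of all genes. Of 12 genes of SREBP processing and sterol handling in the endoplasmic reticulum, 6 rose and 2 fell at 120 h, the share that rose being not far from that of all genes. Examples are Stard3, a sterol carrier of late endosomes (2.72 ± 0.13), Gramd1b, a sterol carrier at membrane contacts (2.25 ± 0.12), and Lbr, a sterol reductase of the nuclear envelope (-0.55 ± 0.11). At 4 h 1 gene of this list was called, higher, and at 8 h 1, lower (median -0.07), each near the share of all genes.

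Of 10 genes of fatty acid synthesis, which is under SREBP-1, that could be tested (12 listed), 1 rose and 6 fell at 72 h (median -0.35, against 34.9% of all genes called higher and 34.7% lower), and 2 rose and 7 fell at 120 h (median -0.91, against 39.6% and 40.3%). Elovl6, an elongase, changed by -3.09 ± 0.12, Fasn, fatty acid synthase, by -2.86 ± 0.18, Fads2, a desaturase, by -2.80 ± 0.14, and Acss2, which makes acetyl-CoA from acetate, rose by 2.53 ± 0.13. At 48 h, the high point of the cholesterol enzymes, 4 of the 10 rose and 3 fell, against 25.8% and 26.8% of all genes. In the isoprenoid branch, which draws on farnesyl diphosphate, 3 of 9 fell at 8 h (median -0.15, against 8.99% of all genes), 2 rose and 7 fell at 72 h (median -0.52), and 1 rose and 5 fell at 120 h (against 39.6% and 40.3%), led by Pdss1 (-3.14 ± 0.17) and Pdss2 (-0.80 ± 0.11), which build the tail of coenzyme Q, Coq2 of the same route (-0.79 ± 0.09), and Fntb, a subunit of farnesyltransferase (-1.85 ± 0.15).

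R07 was set against withdrawal at the 4 matched times. At 12 h the R07 library had more of most enzymes than withdrawal: 16 of 18 were above the mean of the withdrawal libraries of that time, with a median difference of 0.74 (log2). At 36 h 5 of 18 were above and 13 below (median -0.23), at 72 h none was above and 18 were below (median -1.60), and at 120 h 2 were above and 16 below (median -0.97). Of 15371 genes between 48.8 and 52.6% were above the withdrawal mean at each of the 4 times. Among the 8 transport genes 7 were above at 12 h, 6 at 36 h, 3 at 72 h and none at 120 h. Abca1 had 57.6 CPM with R07 at 36 h against 4.98 and 5.43 CPM in withdrawal and 52.1 against 4.96 and 4.92 CPM at 72 h, but 30.3 against 346 and 341 CPM at 120 h. Abcg1 had 111 CPM at 36 h against 33.9 and 33.5 CPM. These are single R07 libraries, so no test was made within a time. Msmo1 had 129 CPM with R07 at 12 h against 44.4 and 43.7 CPM in withdrawal, and 41.5 CPM at 72 h against 153 and 165 CPM. Idi1 had 51.3, 42.5, 8.94 and 6.53 CPM at 12, 36, 72 and 120 h of R07, against 22.2 and 21.2, 39.9 and 40.9, 40.6 and 42.1 and 15.2 and 18.0 CPM in withdrawal. Acat2 had 73.3, 67.3, 15.4 and 10.8 CPM at the 4 R07 times. In these genes the R07 level was above withdrawal at 12 h and below it at 72 h.

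Averaged over the 4 times, with the change of the difference between times in the spread, R07 was called against withdrawal for 3 of the 31 genes, all lower, while 6.09% of 13641 genes were called lower and 10.5% higher. These were Ebp (-0.95 ± 0.26, adjusted p = 0.0345), Sc5d (-0.86 ± 0.24, adjusted p = 0.0419) and Soat1 (-1.41 ± 0.33, adjusted p = 0.0206). Sc5d had 50.4, 70.6, 77.0 and 58.7 CPM with R07, and Soat1 72.3, 102, 97.7 and 66.3 CPM. None of the 3 calls held in every omission of a library. Without the 120 h R07 library 3 genes were called higher (Abca1, Abcg1 and Mylip) and only Soat1 lower, so the direction of the count rests on that library. The count was 12 without the 12 h R07 library, 0 without the 72 h one, and 1 without the 36 h one or without any 1 library of 36, 72 or 120 h of withdrawal. With all 24 libraries in 14 groups, where the spread comes from the withdrawal pairs alone, 23 genes were called, 2 higher and 21 lower. DESeq2 called 5, Mvd and Abca1 among them, while it called 2429 of 16699 genes higher and 1573 lower. Its share called among the 31 was thus not above that of all genes. The shares of all genes that belong to the counts of 12 and 23 are not given here, so these counts cannot be set against them.

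Against 0 h the 4 R07 libraries, taken as 1 group, gave no called gene in edgeR, 0% of 13704 genes higher and 0% lower, with 2868 genes, 6 of them among the 31, at an unadjusted p under 0.05. DESeq2 called 972 genes higher and 249 lower, 1 of them among the 31 (Abca1, with 27.4, 57.6, 52.1 and 30.3 CPM at the 4 R07 times against 14.6 and 13.7 CPM at 0 h). Without the 12 h R07 library edgeR called 1368 genes higher and 888 lower, and 3 of the 31 (Abca1, Mylip and Npc1, all higher). Insig1 with R07 had 112, 133, 92.1 and 70.4 CPM, and Npc2 227, 312, 276 and 209.9 CPM.

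Within R07 the level of 22 of the 31 genes was lower in both the 72 h and the 120 h library than in both the 12 h and the 36 h library, against 27.1% of 15371 genes, a grouping of times chosen after the values were seen and not tested. Among the enzymes this held for 16 of 18, with Hmgcs1 and Sc5d outside it. Of the 5 regulators 4 were also in it (Srebf1, Srebf2, Insig1 and Scap), Srebf2 with 224, 266, 165 and 122 CPM. Of the 8 transport genes 2 were in it (Stard4 and Lpcat3), a share near that of all genes. The 12 h R07 library had the highest mitochondrial share of all 24 libraries, 2.04% of its gene counts, against 1.37, 1.21 and 1.02% in the later R07 libraries. The sum of 12 cell cycle genes was 5742, 5176, 4027 and 3901 CPM at the 4 R07 times, and that of the macrophage markers between 18.0 and 105 CPM. The part of these shifts in the R07 values was not tested.

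The change from 12 h to 120 h was then compared between the arms, with each lone R07 library assumed to vary like the withdrawal pairs. The spread of R07 was not measured, so the SE and p-values here come from the withdrawal pairs alone and say nothing of how R07 cultures vary. Under that assumption the difference, withdrawal minus R07, was called for 29 of the 31 genes, all higher, with a median of 1.52, while 28.5% of 15371 genes were called higher and 33.1% lower and the median of all genes was -0.10. Among the enzymes 17 of 18 were called (median 1.53), among the regulators 4 of 5 and among the transport genes 8 of 8 (median 1.96). Msmo1 went up by 1.74 in withdrawal and down to -1.55 in R07 on the log2 scale, a difference of 3.29 ± 0.17. Abca1 had 4.25 in withdrawal and 0.14 in R07, a difference of 4.11 ± 0.39. Idi1 went down in both arms, to -0.39 in withdrawal and -2.97 in R07, a difference of 2.58 ± 0.20. Of the 18 enzymes 9 had more CPM at 120 h than at 12 h in withdrawal and 2 in R07, and of the 8 transport genes 6 in withdrawal and 3 in R07, so a positive difference does not mean a rise in withdrawal. Nor is it a late gap alone, since it also holds the gap at 12 h. There R07 was above the withdrawal mean for 16 of 18 enzymes (median 0.74), and at 120 h it was below for 16 (median -0.97). For the transport genes these medians were 0.19 and -2.17. The genes not called were Hmgcs1 (-0.27 ± 0.15, adjusted p = 0.113) and Scap (-0.05 ± 0.24, adjusted p = 0.886), and Acat2 and Tm7sf2 lost their calls when single libraries were left out. Hmgcs1 was called, lower, without withdrawal 12 h library B (adjusted p = 0.0307). The 12 h and 120 h R07 libraries could not be left out, since the comparison rests on them.

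**Figure D4:**
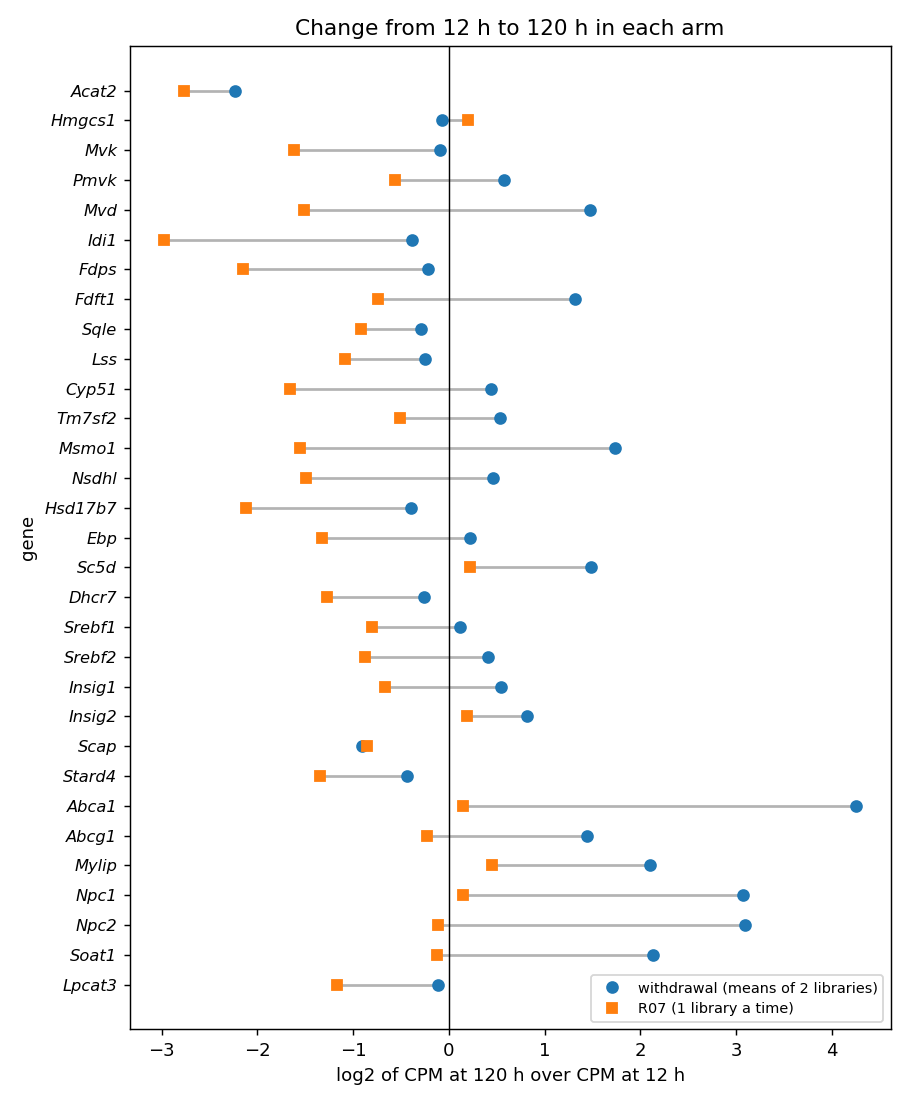
Log2 of CPM at 120 h over CPM at 12 h (horizontal axis) for each of the 31 genes, with circles for withdrawal (means of 2 libraries) and squares for R07 (single libraries). The circle lies to the right of the square for all genes except Hmgcs1 and Scap, and the widest gaps are those of Abca1, Msmo1, Npc2, Mvd and Npc1.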

How the data were processed

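Poly(A)-selected, strand-specific libraries were sequenced from 20 withdrawal and 4 R07 samples. The authors deposited 1 table of raw counts per gene, not normalized; per the submitters' processing notes the tools were STAR 2.4.2a and Picard and the build was mm10, while the counting program, its strand setting and its annotation are not given in the sources used here. The 4 lines that name no gene were left out (unmapped, multimapping, outside genes and ambiguous reads at 1.53 to 2.29, 6.23 to 8.72, 3.88 to 6.48 and 1.08 to 1.25% of reads). Gene counts were 36.7 to 49.6 M a library, so counting error is small for all but Fdps and Tm7sf2 of the 31 genes.

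Symbols and mm10 positions came from GENCODE and promoters from RefSeq. Counts were scaled by TMM, filtered with filterByExpr and tested in edgeR 4.0.16 (limma 3.58.1, R 4.3.3) by the quasi-likelihood test, p-values being adjusted by Benjamini-Hochberg over the genes tested. The test was tried on simulated data. The 20 withdrawal libraries were fitted together; R07 was fitted with withdrawal at the same 4 times (time and arm as terms), with the 0 h libraries, and, for the change between arms, with all 24 libraries. CPM use TMM-scaled library sizes. All 31 genes are named, with library values for those of widest range in each role and for paralogs; other lists name at most 4 genes, those of largest change at 120 h, beside Nr1h3 and Me1, named for their low levels after these were seen. Library values of further genes were added after they were seen. The 31 genes, the lists and the tests were chosen with earlier results of these data known. Alternatives were DESeq2 1.42.0, RLE scaling, no filter, fewer or more libraries in the fit, a block on the column letter, and omission of each library. Where genes overlap on opposite strands (Fdft1 with Ctsb, Cyp51 with Akap9, Srebf1 with Rai1, Npc1 with Rmc1, Lpcat3 with Emg1, Mvd with Gm20388) reads can be told apart only if strand was used.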

Additional observations from a re-analysis of the deposited data

Results flagged for a closer look

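The interaction test (edgeR, adjusted over 15371 genes) compared the change from 12 h to 120 h between withdrawal and R07. Its count of called genes is given above beside the shares of all genes, many of which were called too. Each R07 time has 1 library, so the spread of R07 was not measured, the call assumes that it equals that of the withdrawal pairs, and the values describe these libraries. The differences below are log2 values, withdrawal minus R07, for the genes called, and all are positive. Hmgcs1 and Scap were not called and are not listed. The median of all genes tested was -0.10.

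Among the early enzymes of the route the difference was 0.51 for Acat2, 1.51 for Mvk, 1.14 for Pmvk, 2.99 for Mvd, 2.58 for Idi1 and 1.93 for Fdps. From squalene on it was 2.06 for Fdft1, 0.63 for Sqle, 0.84 for Lss, 2.10 for Cyp51, 1.05 for Tm7sf2 and 3.29 for Msmo1. For the last enzymes it was 1.95 for Nsdhl, 1.72 for Hsd17b7, 1.54 for Ebp, 1.27 for Sc5d and 1.02 for Dhcr7.

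The regulators gave 0.92 for Srebf1, 1.29 for Srebf2, 1.21 for Insig1 and 0.63 for Insig2. The transport genes gave 0.91 for Stard4, 4.11 for Abca1, 1.66 for Abcg1, 1.64 for Mylip, 2.92 for Npc1, 3.20 for Npc2, 2.26 for Soat1 and 1.06 for Lpcat3. The calls of Acat2 and Tm7sf2 were lost in 10 and 2 of 22 omissions of a library.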

How the results depend on the processing

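Across 8525 values of a gene under an alternative, 8269 kept their side of the threshold, 162 lost a call and 94 gained one. No value called in the main fit or the alternative changed direction. For values called in neither, direction was not compared. The number of the 31 genes called moved by over 1.5 times in 3 comparisons. At 24 h against 0 h it ran from 9 to 15 when each library was left out, against 15. For R07 against withdrawal it was 5 with DESeq2, 23 with all 24 libraries in 14 groups and 0 to 12 when each library was left out, against 3, and without the 120 h R07 library it was 3 higher and 1 lower. For R07 against 0 h it was 1 with DESeq2 and 3 without the 12 h R07 library, against 0. In the other 9 comparisons it stayed within 1.5 times under every alternative run. The counts in this paragraph are of the 31 genes alone, without the share of all genes beside them.

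Of the same-letter libraries at different times, 3 of 45 pairs had a correlation of deviations over 0.1 (-0.14 to 0.18, median 0.01). Same-letter libraries thus shared little deviation. Whether A and B were cultures followed over time is not stated and cannot be told from these values. With the replicate block the genes called were 19 at 4 h, 19 at 8 h, 15 at 24 h, 29 at 48 h, 23 at 72 h and 24 at 120 h against 0 h, compared with 17, 18, 15, 29, 23 and 23 without it. RLE scaling moved the median of all genes by at most 0.08.

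The R07 arm has 1 library a time, and with 2 libraries a time in withdrawal all spreads are pooled. A lone library left after an omission is assumed to vary like the other pairs. Among the 31 genes depth limits mainly Fdps and Tm7sf2, at a few CPM, and in the other lists Cyp27a1, Nr1h3 and Me1, under 0.1 CPM at 0 h.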
